A study of Mus musculus with 4 samples.

Results

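The genes described here are 9 components and regulators of the complement system, namely the C1 proteases C1ra and C1s1, the convertase components C2, C4b, C3 and Cfb, the C1 inhibitor gene Serping1 and the membrane regulators Cd55 and Cd59a. A probe set, the group of short oligonucleotides through which an Affymetrix mouse genome array reads a transcript, was taken for a gene where its only annotated symbol was that of the gene. In this way 7 of the 9 genes were read by 12 of 45037 probe sets, out of 18193 genes that had a probe set of their own. C4b was named only by a probe set that names C4a as well, and C3 is not analysed here. The 9 genes were selected on earlier results of the same comparison, the differences between Myc-depleted and control cells, in which C1s1, C2 and Serping1 had been named. Their differences are therefore given as values, without a test.

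The comparison was between 2 groups of 2 arrays each, c-Myc depleted and control bronchoalveolar stem cells (BASCs). Both were derived from lungs of ICR mice aged 4 to 6 weeks by sorting cells negative for CD31 and CD45 and positive for CD34 and Sca-1, which were plated on irradiated embryonic fibroblasts. The study also describes later culture on collagen-coated dishes, and the sources used here do not say which of these the cells on the arrays came from. The study depleted c-Myc with a lentivirus that carried a short hairpin RNA against it. It also describes stable knockdown lines made over several generations of puromycin selection, without stating that the Myc-depleted arrays came from them. The study calls the control cells of the arrays wild type. Neither the hairpin used for the arrays nor a control virus or selection of the control cells is stated for them. The effect of Myc depletion thus cannot be told apart from that of infection and of any selection. The labels number the arrays 1 and 2 within a group without saying whether they came from separate cultures.

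Complement is a cascade of serum proteases. In the classical pathway the proteases C1r and C1s, bound to C1q, cleave C4 and C2 to form the convertase that splits C3, and in the alternative pathway factor B takes the place of C2. The C1 inhibitor blocks C1r and C1s, decay accelerating factor (Cd55) takes the convertases apart, and Cd59 stops the membrane attack complex. Most circulating components come from the liver, but fibroblasts, epithelial cells and macrophages also make several of them.

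All values are log2 expression values, and differences are Myc-depleted minus control, with the standard error (SE) that limma gave in its fit across all probe sets. Probe sets whose mean over the 4 arrays lay under the 40th percentile, log2 5.08, were counted as low and left out of that fit. Myc itself, the depleted transcription factor, was read at 8.35 and 8.50 in Myc-depleted cells, against 9.21 and 9.69 in control cells, a difference of -1.02 (SE 0.21, limma adjusted p = 0.363).

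The arrays differed in a way that their labels do not give. The mean 3′ minus 5′ difference of 4 bacterial poly-A spike-in transcripts, which widens where labelled RNA does not reach the 5′ end, was 3.62 on Myc-depleted 1 and 2.05 on Myc-depleted 2, against 2.15 on control 1 and 3.24 on control 2. A probe set for the middle of 18S ribosomal RNA gave 10.57 and 8.24 in Myc-depleted cells, against 7.89 and 10.25 in control cells. Myc-depleted 1 was thus like control 2 in these measures, and Myc-depleted 2 like control 1, so differences of the complement genes are also given between these like arrays. The markers of the labelled cell type were low. Surfactant protein C (Sftpc), Clara cell secretory protein (Scgb1a1) and Cd34 lay between 3.66 and 4.75 on all arrays, 3 of 3 under the threshold. The sort marker Sca-1 (Ly6a) had no probe set of its own. In Myc-depleted cells Sftpc and Scgb1a1 were higher (differences of 0.37 and 0.18) and Cd34 lower (-0.20) without overlap, all at low values. Without the filter, 21.9% of all probe sets were higher and 16.4% lower without overlap. The study reports no change in the mRNA of SP-C (Sftpc), CCA (Scgb1a1) and Aquaporin on its arrays. It detected SP-C and CCA in the cultured cells by immunostaining. Of 10 fibroblast and mesenchymal markers 9 were over the threshold, with vimentin (Vim) at 14.39 to 14.53, and 3 were higher and 3 lower without overlap in Myc-depleted cells. The higher were Pdgfra (1.23), Dcn (0.67) and Pdgfrb (0.44), and the lower Thy1 (-1.26), Lum (-0.15) and Vim (-0.09). For scale beside the marker counts, 26.6% of all genes tested were higher and 20.8% lower without overlap. The log2 of the summed linear values of the 10 markers, set mostly by the brightest, was 16.23 and 15.95 in Myc-depleted cells, against 16.04 and 16.20 in control cells. Of 9 macrophage markers 5 were under the threshold, among them Itgam and Ptprc, 0 were higher and 2 lower without overlap. Their sum was 9.71 and 10.33 in Myc-depleted cells, against 10.18 and 9.75 in control cells. The 4 over the threshold overlapped, with differences of -0.05 (Csf1r), -0.04 (Cd14), 0.18 (Adgre1) and 1.14 (Lyz2). Csf1r, the brightest, had means of 9.35 in Myc-depleted and 9.40 in control cells. Lyz2 read 5.71 and 7.71 in Myc-depleted cells, against 5.27 and 5.88 in control cells. Of 6 epithelial markers 4 were under the threshold, 1 was higher (Epcam) and 1 lower (Cdh1) without overlap, and their sum was 8.50 and 8.36 in Myc-depleted cells, against 8.07 and 8.08 in control cells. Epcam, the brightest of them, read 7.80 and 7.52 in Myc-depleted cells, against 6.89 and 7.12 in control cells. Its probe set is of a type that Affymetrix marks as open to cross-hybridization with other transcripts. The part of these cells, or of feeder cells, in the results was not tested.

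Both C1 proteases were higher on the 2 Myc-depleted arrays than on the 2 control arrays. C1s1, which encodes the protease that cleaves C4 and C2, was read by 1 probe set at 8.95 and 8.32 in Myc-depleted cells, against 7.03 and 7.26 in control cells. The groups did not overlap, and both Myc-depleted arrays were higher by more than the gap between any arrays of 1 group. The mean was 8.63 ± 0.45 in Myc-depleted and 7.14 ± 0.17 in control cells (SD, n = 2 each), a difference of 1.49 (SE 0.26) or 2.81-fold. In bulk RNA a larger share of cells that express a gene cannot be told apart from more RNA per cell. C1ra, which encodes the protease that activates C1s, was read at 9.60 and 8.99 in Myc-depleted cells, against 8.09 and 8.62 in control cells. Its groups did not overlap either, but the nearest arrays, Myc-depleted 2 and control 2, lay 0.38 apart, less than the 0.53 between the control arrays. The difference was 0.94 (SE 0.30), or 1.92-fold. A further probe set, annotated to C1ra and to its near copy C1rb and so assigned to neither, gave 7.62 and 7.36 in Myc-depleted cells, against 6.66 and 6.95 in control cells, with the same order of arrays. The type of the C1s1 probe set, marked by Affymetrix as shared by transcripts of more than 1 gene, leaves a share of the related C1s2 in its value possible.

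Between like arrays both proteases were higher in Myc-depleted cells in each pair, which is preset where groups do not overlap. The 2 differences of a gene also average to that of its group means, so only their spread is new. C1s1 differed by 1.69 between Myc-depleted 1 and control 2 and by 1.29 between Myc-depleted 2 and control 1, and C1ra by 0.98 and 0.90. The 2 genes are neighbours among the protein-coding genes of RefSeq assembly GRCm38.p6. Since they stood out together, the letters around their start sites are shown, from 250 bases before to 50 bases after a RefSeq start (build GRCm38.p6). The C1ra window is chr6:124512371-124512670 on the + strand and the C1s1 window, for the more upstream of its 2 listed starts, is chr6:124542310-124542609 on the - strand. Capitals mark matches to the motifs searched.
C1ra: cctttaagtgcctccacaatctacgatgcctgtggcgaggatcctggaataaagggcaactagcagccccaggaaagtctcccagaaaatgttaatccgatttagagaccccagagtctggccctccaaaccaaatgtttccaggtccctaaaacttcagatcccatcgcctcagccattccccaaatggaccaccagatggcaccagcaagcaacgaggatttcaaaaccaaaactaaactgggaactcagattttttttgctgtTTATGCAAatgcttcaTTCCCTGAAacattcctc
C1s1: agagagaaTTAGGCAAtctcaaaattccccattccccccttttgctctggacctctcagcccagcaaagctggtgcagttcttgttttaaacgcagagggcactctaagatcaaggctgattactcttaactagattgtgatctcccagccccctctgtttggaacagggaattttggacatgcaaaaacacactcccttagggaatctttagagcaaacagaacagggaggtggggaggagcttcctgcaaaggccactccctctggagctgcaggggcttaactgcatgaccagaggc
In C1ra the capitals are a match to the C/EBP motif TTGCNNAA at bases 267 to 274, counted from the 5′ end of the run, and one to the Stat motif TTCNNNGAA at bases 283 to 291. In C1s1 they are a match to the C/EBP motif at bases 9 to 16, which the window of the other C1s1 start does not reach. Both strands were searched, and these matches do not overlap. The C/EBP motif occurred in 10.8% and the Stat motif in 8.3% of 32851 RefSeq windows of this length. The E-box CACGTG, to which Myc and Max bind, was in 0 of the 5 windows held for 4 of the measured genes (C1ra, C1s1, Cd55 and Cd59a), against 7.15% of all windows. The window of Cd55 held 1 match to an NF-kB motif (4.79% of windows) and that of Cd59a 1 to the interferon-stimulated element (3.44%). A match describes letters only, and windows for Serping1, C2 and Cfb were not used here.

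**Figure D1:**
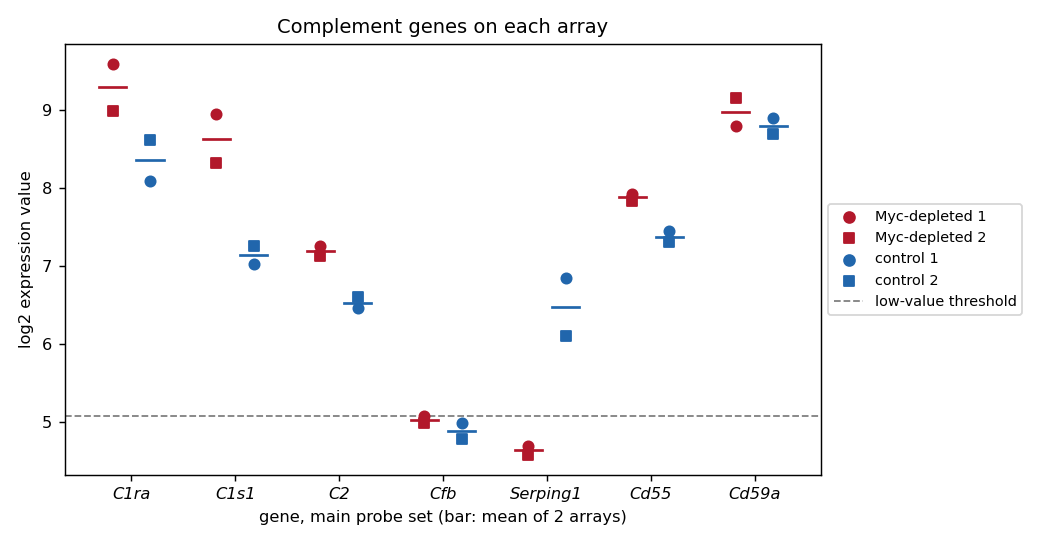
Log2 expression value of the main probe set of each of the 7 measured complement genes on the 2 Myc-depleted arrays (red) and the 2 control arrays (blue), with bars for group means and the low-value threshold of 5.08 as a dashed line. C1ra, C1s1, C2 and Cd55 lie higher without overlap in Myc-depleted cells, and Serping1 lies lower, with both Myc-depleted arrays under the line.

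C2, the component that C1s cleaves to give the protease of the classical convertase, was also higher in Myc-depleted cells, and its 3 probe sets differed in the same direction. The brightest read 7.26 and 7.13 in Myc-depleted cells, against 6.47 and 6.60 in control cells, a difference of 0.66 (SE 0.13) or 1.58-fold. The others differed by 0.65 (SE 0.18) and 0.86 (SE 0.16). The last of these read 5.01 and 5.09 in control cells, with a mean of 5.05 that lay under the low-value threshold. It passed the filter only through its Myc-depleted arrays. None of the 3 overlapped between groups, and the gaps within each group, at most 0.41, were smaller than each difference of means. In the probe set that differed by 0.65, the nearest arrays, Myc-depleted 2 and control 2, lay 0.405 apart. That was less than the 0.409 between its Myc-depleted arrays. Between like arrays the brightest differed by 0.66 and 0.66. The brightest and 1 of the others are of a type that Affymetrix marks as open to cross-hybridization with other transcripts. Cfb, which encodes factor B and is the coding gene next to C2, lay near background with a mean of 4.96. It read 5.08 and 4.99 in Myc-depleted cells, against 4.99 and 4.78 in control cells, the groups overlapped, and it was too low for the fit. Between like arrays Cfb differed by 0.30 (Myc-depleted 1 and control 2) and -0.0048 (Myc-depleted 2 and control 1).

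The probe set that names both C4b and C4a was high on 1 array. It read 9.01 on Myc-depleted 1 and 7.44 on Myc-depleted 2, against 7.09 and 7.09 on the control arrays. The gap of 1.57 between the Myc-depleted arrays was exceeded by 2.28% of tested probe sets. Its difference of 1.14 (SE 0.56) thus came mostly from Myc-depleted 1, and was 1.92 between Myc-depleted 1 and control 2 but 0.35 between Myc-depleted 2 and control 1. RefSeq lists C4a as a transcribed pseudogene in this assembly, and the share of each gene in the value is unknown.

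Serping1, which encodes the inhibitor of C1r and C1s, stood on the other side from the proteases. It read 4.70 and 4.58 in Myc-depleted cells, against 6.84 and 6.10 in control cells. The groups did not overlap and the difference was -1.84 (SE 0.29), which left 28.0% of the control level. Both Myc-depleted values lay under the low-value threshold, where background limits how low a value can be read, so the size of the difference is not well measured. The gap between the control arrays, 0.74, was exceeded by 4.69% of tested probe sets, whereas that between the Myc-depleted arrays was 0.12. Between like arrays Serping1 differed by -1.40 (Myc-depleted 1 and control 2) and -2.27 (Myc-depleted 2 and control 1).

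**Figure D2:**
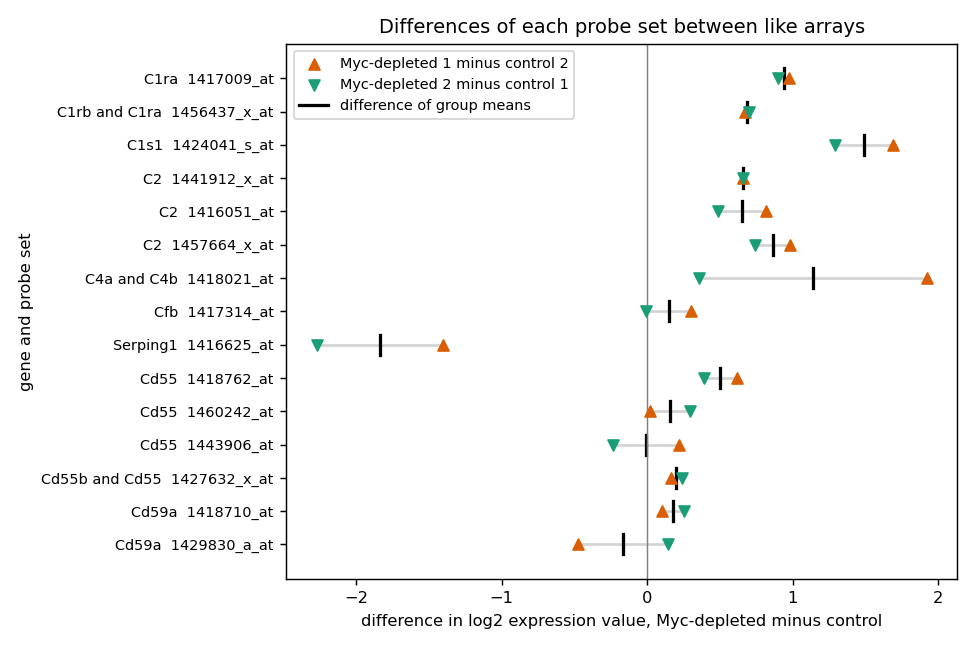
Difference in log2 expression value of the 12 probe sets of the complement genes and the 3 shared with a related gene, between Myc-depleted 1 and control 2 (orange), between Myc-depleted 2 and control 1 (green) and between group means (black bars). C1ra, C1s1 and C2 lie right of 0 and Serping1 left of 0 in both pairs, while the probe set of C4a and C4b ranges from 0.35 to 1.92.

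The membrane regulators gave different answers by probe set. Cd55, the membrane-anchored decay accelerating factor, was read at 7.93 and 7.84 in Myc-depleted cells, against 7.44 and 7.31 in control cells, by its brightest probe set. These groups did not overlap, with a difference of 0.50 (SE 0.12) or 1.42-fold, and of 0.61 (Myc-depleted 1 and control 2) and 0.39 (Myc-depleted 2 and control 1) between like arrays. Its other probe sets overlapped, with differences of 0.16 (SE 0.40) and -0.01 (SE 0.16), and the mean of the 3 differed by 0.22. Of these, 1460242_at read 7.17 and 8.07 in Myc-depleted cells, against 7.77 and 7.16 in control cells, high on the arrays with a small spike-in difference and low on the others. Cd59a, the inhibitor of the membrane attack complex, was read at 8.79 and 9.15 in Myc-depleted cells, against 8.90 and 8.69 in control cells. The groups overlapped and the difference was 0.18 (SE 0.18), with 0.10 and 0.25 between like arrays. Its second probe set, 1429830_a_at, read 7.19 and 8.64 in Myc-depleted cells, against 8.49 and 7.67 in control cells, a difference of -0.17 (SE 0.60), with -0.48 and 0.14 between like arrays. It was again high on Myc-depleted 2 and control 1. Its gaps within groups, 1.45 and 0.83, were exceeded by 3.01% and 3.55% of tested probe sets. For both genes the spike-in difference moved with these probe sets, and its part in their values was not tested.

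**Figure D3:**
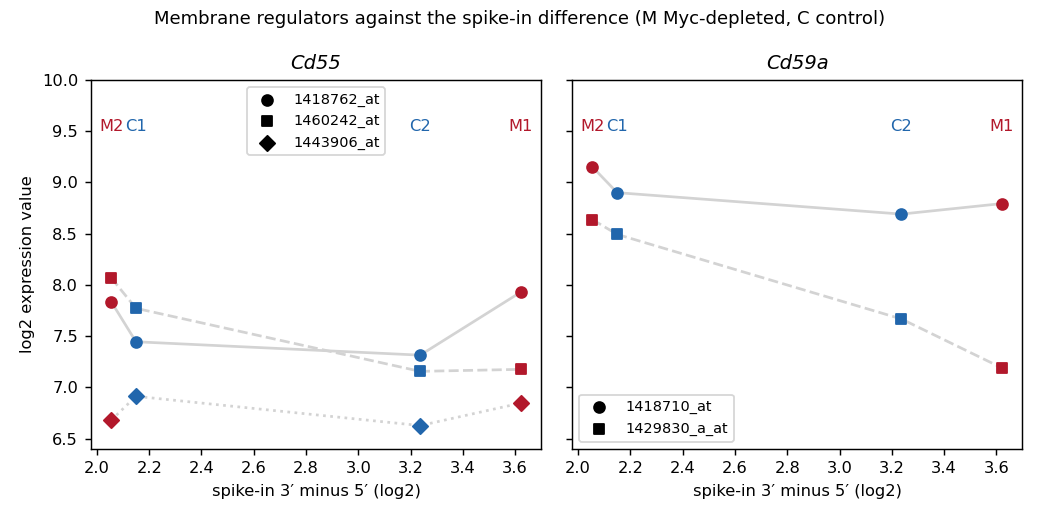
Log2 expression value of the 3 probe sets of Cd55 (left) and the 2 of Cd59a (right) on each array against the mean 3′ minus 5′ difference of 4 poly-A spike-ins on that array, with Myc-depleted arrays in red and control arrays in blue. Probe sets 1460242_at and 1429830_a_at are high at spike-in differences of 2.05 and 2.15 and low at 3.24 and 3.62, while 1418762_at is higher on both Myc-depleted arrays.

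Over the 7 measured genes, each by its brightest probe set, 4 were higher without overlap in Myc-depleted cells (C1ra, C1s1, C2, Cd55). Of the others 1 was lower (Serping1) and 2 overlapped (Cfb, Cd59a). Of 12589 genes tested, 26.6% were higher and 20.8% lower without overlap, a background given for scale because the genes were chosen with this comparison known. Of the 7, 6 passed the filter, and Serping1 passed it only through its control arrays. The dimmest C2 probe set, counted next among those higher, passed it only through its Myc-depleted arrays. By probe set, 6 of 12 were higher, 1 was lower and 5 overlapped, against 22.5% higher and 18.5% lower of all tested probe sets. A difference over 2-fold was read by 2 of the 12, those of C1s1 and Serping1, against 0.729% of tested probe sets over 2-fold higher and 0.655% over 2-fold lower. The median difference of the 6 was 0.58, against 0.02 over all genes tested. The 5 probe sets of C1ra, C1s1 and C2, 3 of them of C2, shared 1 order of arrays. It was highest on Myc-depleted 1, then Myc-depleted 2, control 2 and control 1, an order found in 9.45% of tested genes. That share is for scale only, as the choice of the genes with this comparison known preset part of the order. On C1ra, C1s1 and C2 the Myc-depleted array with the wide spike-in difference was thus above the other, and so was the control array, whereas Serping1 ran from control 1 down to Myc-depleted 2.

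The genes whose 4 values, each centred on its own mean, lay closest to those of C1s1 were Adgrd1, an adhesion receptor (distance 0.15), the cell cycle regulator Rgcc (0.16) and the transcription factor Cebpa (0.23). Rgcc, for example, read 9.55 and 8.96 in Myc-depleted cells, against 7.57 and 7.69 in control cells. Closest to Serping1 were Plac8 (0.30), the secreted collagen regulator Cthrc1 (0.32) and the sulfotransferase gene Chst15 (0.34). In Myc-depleted cells Cthrc1 read 4.57 and 4.65 and Chst15 4.63 and 4.60, under the low-value threshold as Serping1 was. Plac8 read 11.28 and 11.18 there. With 4 arrays such likeness is a description only.

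Other genes of the complement system were mostly low. Of 49 further genes listed by role, 40 had a probe set of their own, 14 passed the filter, and 0 were called by limma at an adjusted p under 0.05, as were 0.0% of all genes tested. At an unadjusted p under 0.05, 0 were higher and 1 was lower, against 6.96% and 5.23% of all genes tested, and the median difference of the 14 was -0.01, against 0.02 over all genes. Among recognition molecules C1qa and C1qc, subunits of the protein that carries C1r and C1s, lay under the threshold, between 3.78 and 4.29. C1qb, just over it, read 5.20 and 5.18 in Myc-depleted cells, against 5.25 and 5.17 in control cells. The lectin pathway protease gene Masp1 read 11.54 and 11.64 in Myc-depleted cells, against 11.63 and 11.53 in control cells, and its 5 tested probe sets differed by -0.41 to 0.38. The ficolin gene Fcnb differed by 0.13 (SE 0.16), and properdin (Cfp), which stabilises the alternative convertase, by 0.20 (SE 0.40).

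Terminal components that passed the filter were C6, with a difference of -0.12 (SE 0.13), and Hc, the gene of C5, with -0.03 (SE 0.14). Among fluid-phase regulators clusterin (Clu) differed by -0.18 (SE 0.31) and the C4b-binding protein gene C4bp by 0.13 (SE 0.35). The rodent membrane regulator Crry (Cr1l) read 9.84 and 10.05 in Myc-depleted cells, against 9.70 and 9.85 in control cells. Its groups overlapped, with a difference of 0.17 (SE 0.14), while Susd4 did not overlap and differed by 0.20 (SE 0.11, limma adjusted p = 0.643). Cd46 differed by -0.03 (SE 0.13). Of the receptors, C5ar1 differed by -0.03 (SE 0.13). Cd93, a surface receptor once described as binding C1q, read 5.25 and 5.26 in Myc-depleted cells, against 5.81 and 5.81 in control cells. It was the 1 gene at an unadjusted p under 0.05, with a difference of -0.55 (SE 0.11, limma adjusted p = 0.358), and with -0.56 and -0.55 between like arrays.

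Between like arrays 11 of the 14 further complement genes and 2 of the 11 inducing factors described next differed in opposite directions in the 2 pairs. Clusterin differed by 0.40 between Myc-depleted 1 and control 2 and by -0.75 between Myc-depleted 2 and control 1, and properdin by 0.59 and -0.18.

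Transcription factors listed as inducing factors, of the Stat, Irf, NF-kB and C/EBP families together with Ciita, were given for reference. Of 14 listed, 12 had a probe set of their own and 11 passed the filter. Of these 0 were called, 2 were higher at an unadjusted p under 0.05 (Cebpa and Stat2) and 0 lower, against 6.96% and 5.23% of all genes tested, with a median difference of 0.19. Cebpa read 7.95 and 7.31 in Myc-depleted cells, against 6.30 and 6.33 in control cells, a difference of 1.31 (SE 0.25, limma adjusted p = 0.350). Its difference was 1.61 between Myc-depleted 1 and control 2 and 1.01 between Myc-depleted 2 and control 1. Stat2 differed by 0.46 (SE 0.16, limma adjusted p = 0.478), Cebpb by 0.58 (SE 0.37), Cebpd by 0.48 (SE 0.25) and Stat3 by 0.34 (SE 0.18). Irf1, the interferon regulatory factor, read 8.17 and 8.11 in Myc-depleted cells, against 8.01 and 7.98 in control cells, and Rela differed by 0.11 (SE 0.14). Relb and Nfkb2 differed by -0.31 (SE 0.39) and -0.21 (SE 0.19). 

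**Figure D4:**
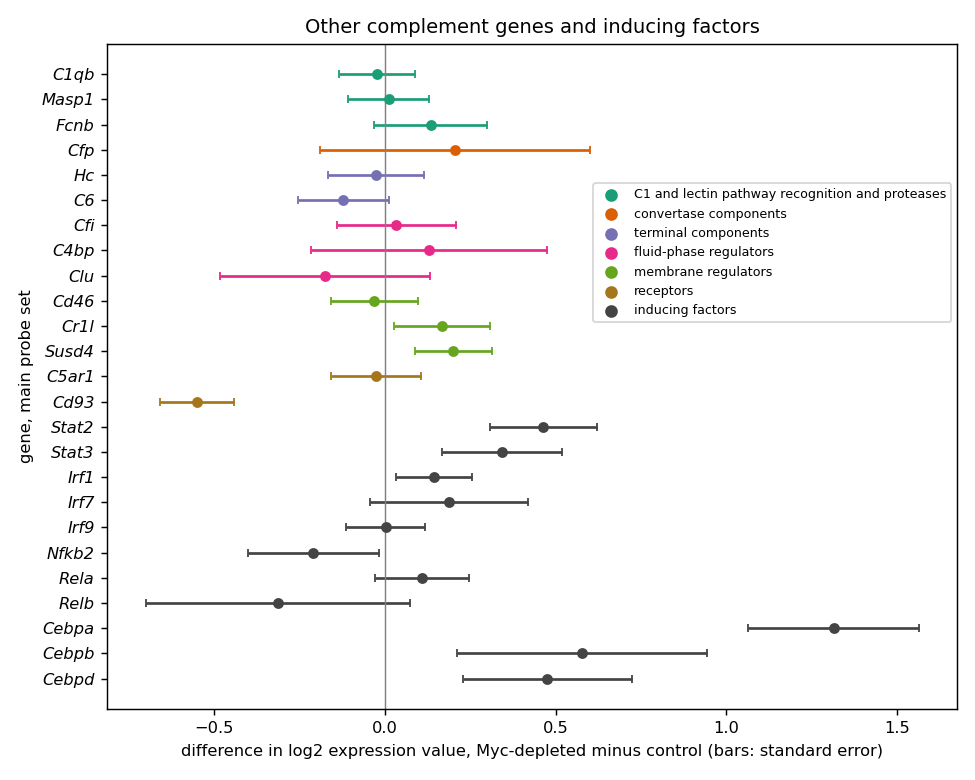
Difference in log2 expression value, Myc-depleted minus control, of the 25 other complement genes and inducing factors that passed the filter, with standard errors from limma and colours for the role. Of these 15 lie within 1 standard error of 0, Cd93 lies at -0.55 and Cebpa at 1.31, and none of them was called.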

How the data were processed

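Gene expression was measured in Myc-depleted and control BASCs on 4 single-colour arrays. Using Partek Genomics Suite 6.4, the authors normalized the scanned arrays and deposited 1 normalized log2 value per probe set. Their methods name Robust Multichip Average and the submitters' processing notes name GCRMA, and which of these made the values is not settled, which matters most for low values. Array medians lay between 5.48 and 5.49.

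Of 45101 probe sets, 64 control probe sets were left out of the tests, and 27022 passed the filter on the mean (12589 genes, each by its brightest probe set). Groups were compared with limma 3.58.1 in R 4.3.3 (lmFit, eBayes, group as the only factor, 2 residual and 2.02 prior degrees of freedom), with Benjamini-Hochberg adjustment over all probe sets tested. The code was tested on simulated data. The number of arrays limits the precision, and p-values measure only the spread between arrays, which may be technical. Members, gene lists and motifs were chosen with earlier results of these data known. Genes were named by a rule: Myc, every member, other complement genes at an unadjusted p under 0.05, the 2 brightest of each role, and the 3 nearest patterns to C1s1 and Serping1; further genes of the lists are given as values and were chosen after these were seen. Symbols came from the platform annotation, and 7 members matched RefSeq by Entrez identifier. Alternatives were other filters, scalings, variance models, tests and probe sets, a replicate block, and leaving out each array.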

Additional observations from a re-analysis of the deposited data

How the results depend on the processing

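The differences of C1ra, C1s1, C2, Cd55 and Serping1 kept their direction under all alternatives run for them, between 0.64 and 1.24 for C1ra, 1.17 and 1.81 for C1s1, 0.60 and 0.73 for C2, 0.22 and 0.57 for Cd55, and -2.21 and -1.47 for Serping1. Most alternatives could not change it. Other filters, variance models, tests and the replicate block leave a difference of group means as it is. Leaving out 1 array cannot reverse a difference between groups that do not overlap. The direction could thus have changed only under the scalings and, for Cd55, the mean of its probe sets. The lowest value for Cd55 came from the mean of its probe sets. That of Cd59a, 0.18, ranged from -0.00207 without Myc-depleted replicate 2 to 0.36 without Myc-depleted replicate 1. With the filter at the 60th percentile 0 members were lower without overlap, as Serping1 then fell under the filter. The count of members higher without overlap, 4, was 3 with the mean of all tested probe sets per gene. Under all alternatives 0 of the other complement genes were called.

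Over all probe sets, 21 were called at an adjusted p under 0.05 with the crossed pairing of replicate numbers, chosen after seeing the data, and 22 genes with the mean of all probe sets per gene, against 0 otherwise. The cause was not tested. The count over 2-fold at an unadjusted p under 0.05, 316, was 207 with the methods' ANOVA and 197 with the mean per gene, which tests fewer features. It ranged from 290 to 830 when 1 array was left out, at 566 without Myc-depleted replicate 1 and 830 without Myc-depleted replicate 2. The share without overlap then ranged from 31.7% to 41.8% higher and from 29.7% to 37.6% lower, as fewer arrays must not overlap. With the replicate number as a block the count was 306. Same-numbered arrays deviated oppositely from their group means (correlation of -0.766 over 27022 probe sets, 2 pairs). The labels do not say what else than a number they share, and the block changed no call. Values near the low-value threshold, such as Cfb and Serping1 in Myc-depleted cells, are limited by background.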
